A study of Mus musculus with 4 samples.

Results

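DNA methylation across the HoxD cluster was examined in 2 fractions of mouse sperm. The cluster was taken as the interval chr2:74485000-74610000 of the mm9 build, which holds all 9 Hoxd genes and Evx2, and it was set beside flanks of 100 kb on either side. A CG site is a cytosine followed by a guanine, both strands added together, and its level is the percentage of its reads that were methylated. Of 3391 CG sites listed in the interval, 2303 had at least 5 reads in every library and were used (67.9%). Over chromosomes 1 to 19, X and Y, 2638319 sites met the same minimum, or 12.4% of those listed. The flanks held 209 such sites of 1418, most of them within 1 kb of the start of Lnpk (97 sites) or of Mtx2 (76 sites). The used sites of the interval formed 242 windows of 200 bp with at least 3 sites each, out of 316993 windows genome-wide.

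All libraries came from wild-type C57BL/6 males of 11 to 12 weeks. Swim-up sperm were collected from the top of the M2 medium in which the tissue had been incubated. HRCS, the histone replacement-completed sperm, were high-density sperm heads isolated by mild sonication and 82% Percoll from total sperm of the caudal epididymis and vas deferens. The labels give both tissues for every library, while the study's text names only caudal epididymis for a swim-up culture, so a difference of source tissue and the fraction cannot be told apart. DNA was enriched with SureSelect capture probes and read by targeted bisulfite sequencing (TGBS), with 2 libraries per fraction and no statement that they came from separate animals, so that p-values measure only the spread between these libraries, which may be technical. The deposited tables held 71379227 to 89403347 calls per library, a call being 1 read at 1 CG site, and the median used site of the interval had 23 to 32 reads. No measure of incomplete bisulfite conversion was analysed here, so levels near 1% and unconverted cytosines cannot be told apart.

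Hox genes encode homeodomain transcription factors that give cells of the embryo their position along the body axis. The Hoxd genes all read in the same direction, and their order on the chromosome matches the order in which they are switched on, from Hoxd1 at the anterior end to Hoxd13 at the posterior end. In cells where they are silent, such clusters are commonly held by Polycomb proteins rather than by DNA methylation, and their CpG islands, stretches rich in CG sites, usually lack methylation.

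Promoter sequences show how much the genes differ in the substrate for methylation. The bases before the start of 4 genes are given because they span the range: Hoxd13 had the most CG dinucleotides of the 9 promoter windows, Hoxd12 had the highest measured level, Hoxd8 had the fewest of the 8 measured, and Hoxd1 stands at the other end of the cluster. Each run is the 250 bases before the start in RefSeq (GRCm38.p6), written on the plus strand on which the genes lie, with CG dinucleotides in capitals.
Hoxd13: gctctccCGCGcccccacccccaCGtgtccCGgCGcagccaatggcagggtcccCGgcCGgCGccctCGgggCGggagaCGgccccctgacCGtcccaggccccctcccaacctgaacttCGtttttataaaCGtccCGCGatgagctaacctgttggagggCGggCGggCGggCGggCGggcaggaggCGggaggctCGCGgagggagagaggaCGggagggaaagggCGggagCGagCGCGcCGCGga
Hoxd12: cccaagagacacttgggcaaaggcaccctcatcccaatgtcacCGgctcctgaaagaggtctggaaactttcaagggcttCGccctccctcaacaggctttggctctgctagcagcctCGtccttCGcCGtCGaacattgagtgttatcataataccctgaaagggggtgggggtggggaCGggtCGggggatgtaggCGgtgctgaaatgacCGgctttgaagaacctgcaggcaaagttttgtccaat
Hoxd8: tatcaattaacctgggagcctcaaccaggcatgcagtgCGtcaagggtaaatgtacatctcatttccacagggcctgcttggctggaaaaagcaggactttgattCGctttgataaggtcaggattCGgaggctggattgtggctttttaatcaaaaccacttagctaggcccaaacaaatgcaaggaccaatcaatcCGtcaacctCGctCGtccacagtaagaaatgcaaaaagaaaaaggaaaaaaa
Hoxd1: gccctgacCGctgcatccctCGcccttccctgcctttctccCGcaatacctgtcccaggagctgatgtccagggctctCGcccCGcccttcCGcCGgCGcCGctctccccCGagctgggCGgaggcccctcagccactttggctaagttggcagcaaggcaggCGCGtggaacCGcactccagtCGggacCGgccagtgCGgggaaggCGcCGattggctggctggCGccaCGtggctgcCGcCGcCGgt
The printed runs hold 31, 10, 6 and 24 CG dinucleotides, respectively. With the 50 bases after the start, the windows hold 37, 13, 6 and 29. The Hoxd8 run precedes an upstream transcript start and not that of the main coding transcript. In exon 1 of that coding transcript, chr2:74543601-74543800 lists 30 CG sites, so the gene is not poor in CG sites throughout. Of all 32851 promoter windows of the same length, 5.58% hold at least as many CG dinucleotides as that of Hoxd13, and 56.4% at least as many as that of Hoxd8.

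The interval was almost free of methylation in both fractions. Swim-up libraries 1 and 2 averaged 3.78% and 3.96% over its sites, against 4.15% and 3.92% in the HRCS libraries. The fractions thus stood at 3.87% ± 0.126 and 4.03% ± 0.168 (SD, n = 2), and their libraries overlapped. The difference of 0.162 percentage points was within the spread between libraries (two-sided exact permutation test, p = 0.667). With 2 libraries against 2, the smallest p that test can give is 0.333, so no comparison of means here could reach 0.05. Over the 2638319 sites with at least 5 reads genome-wide, the level was 34.9% in both fractions. The median site of the interval was at 1.14%. A mean over the 4 libraries of at most 5% was found for 2009 sites (87.2%), and 685 sites had no methylated read in any library. At the other extreme, 37 sites lay above 50%.

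Among the 242 windows, 223 (92.1%) were at or below 25%, 13 were between 25% and 50%, 2 between 50% and 75%, and 4 above 75%. The share at or below 25% was 93.4% and 91.7% in the swim-up libraries against 91.7% and 93.4% in the HRCS libraries. Over all windows, 50.9% were in that class in the mean of the 4 libraries, and of the 18 flank windows 83.3%. Among these windows, which each needed 3 used sites, the interval was low also at the fewest listed CG sites. In windows with 3 to 5 listed CG sites, 82.9% of 76 windows in the interval were at or below 25%, compared with 28.6% of all windows of that density and 6 of 8 windows in the flanks. With 6 to 9 sites, the shares were 91.8% of 73 and 59.1%. All windows of the interval with 10 or more sites were in the lowest class.

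**Figure D1:**
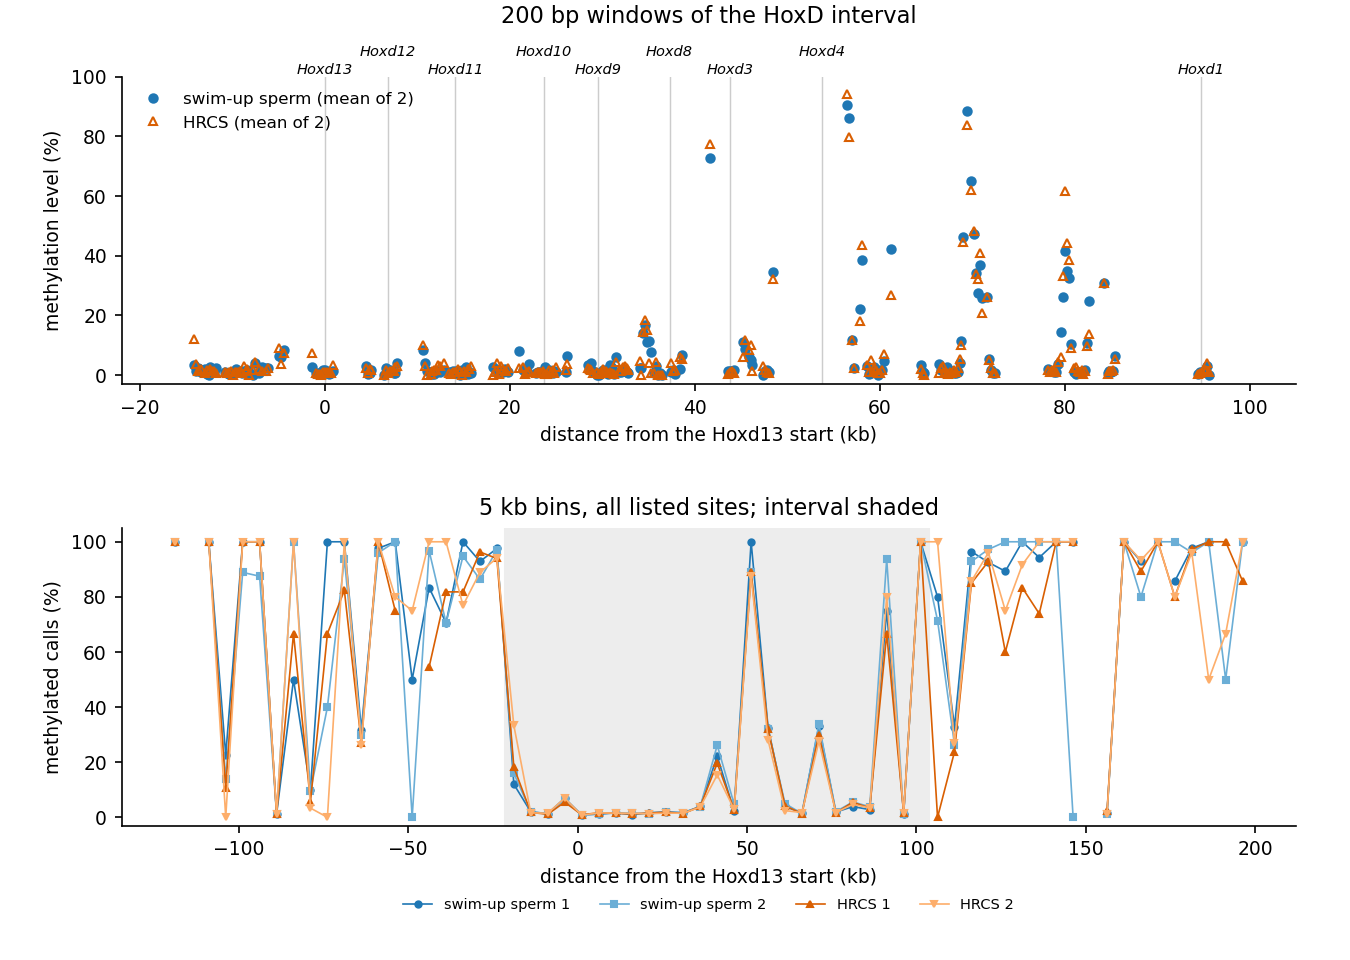
The upper plot gives the methylation level (%) of each 200 bp window of the HoxD interval against the distance from the Hoxd13 start (kb), with circles for swim-up sperm, triangles for HRCS (means of 2 libraries) and vertical lines at gene starts. The lower plot gives the percentage of methylated calls in 5 kb bins of the interval (shaded) and its flanks for each library, without a read minimum; many bins of the flanks rest on few calls. Before the Hoxd8 start the highest point is at 18.4%, in HRCS, and the 19 windows above 25% in the mean of the 4 libraries lie between Hoxd8 and Hoxd1.

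The posterior end of the cluster, up to Hoxd8, held no window above 25%. Hoxd13 is needed for digits and external genitalia, Hoxd12 and Hoxd9 act in the limb, Hoxd11 in the forearm and kidney, and Hoxd10 in motor neurons of the hindlimb. From the Hoxd13 start to the Hoxd12 start, the mean level was 1.19% and 1.06% in swim-up sperm against 1.90% and 1.12% in HRCS. The next segments, to Hoxd11, Hoxd10 and Hoxd9, had means over the 4 libraries of 1.58%, 1.49% and 1.96%, and the segment from Hoxd9 to Hoxd8 had 2.30%. In the 5 segments from Hoxd13 to Hoxd8, the highest window stood at 17.6% in the mean of the 4 libraries, and it lay between Hoxd9 and Hoxd8. Between Hoxd12 and Hoxd11 the libraries did not overlap, with 1.30% and 1.57% in swim-up sperm against 1.69% and 1.78% in HRCS (exact permutation p = 0.333). Before Hoxd13, where Evx2, another homeobox gene of the limb and nervous system, is read in the opposite direction, the mean was 1.74%.

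Levels were higher in the segments between the starts of Hoxd8 and Hoxd1. Segments run between annotated starts, and here the Hoxd3 start lies before that of Hoxd4. The coding sites lie in the other order, at 74565349 to 74566634 for Hoxd4 and 74584407 to 74585109 for Hoxd3. The segment from Hoxd4 to Hoxd1 therefore holds the measured coding sites of both genes. The segment from Hoxd8 to Hoxd3 was at 5.06% and 5.05% in swim-up sperm against 6.22% and 5.92% in HRCS, so that its libraries did not overlap (difference 1.02 points, exact permutation p = 0.333). Of its 85 used sites, 4 lay above 50%, and 1 of its 7 windows was above 25%, at 75.2%. Hoxd8 acts in the trunk, and Hoxd3 shapes the first cervical vertebrae. Between the Hoxd3 and Hoxd4 starts, the level was 3.32% and 5.99% in swim-up sperm against 4.52% and 5.00% in HRCS, with both HRCS libraries inside the range of swim-up sperm. The longest segment, from Hoxd4 to Hoxd1, was the highest at 8.32% and 8.82% in swim-up sperm against 9.05% and 8.20% in HRCS. It held 32 of the 37 sites above 50%. After the start of Hoxd1, a gene of pain-sensing neurons among other cells, the level was 1.40% and 1.00% in swim-up sperm against 2.21% and 1.65% in HRCS, again without overlap (exact permutation p = 0.333). The order of the segments above 4% was Hoxd4 to Hoxd1, then Hoxd8 to Hoxd3, then Hoxd3 to Hoxd4, and the last 2 overlapped in their libraries.

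**Figure D2:**
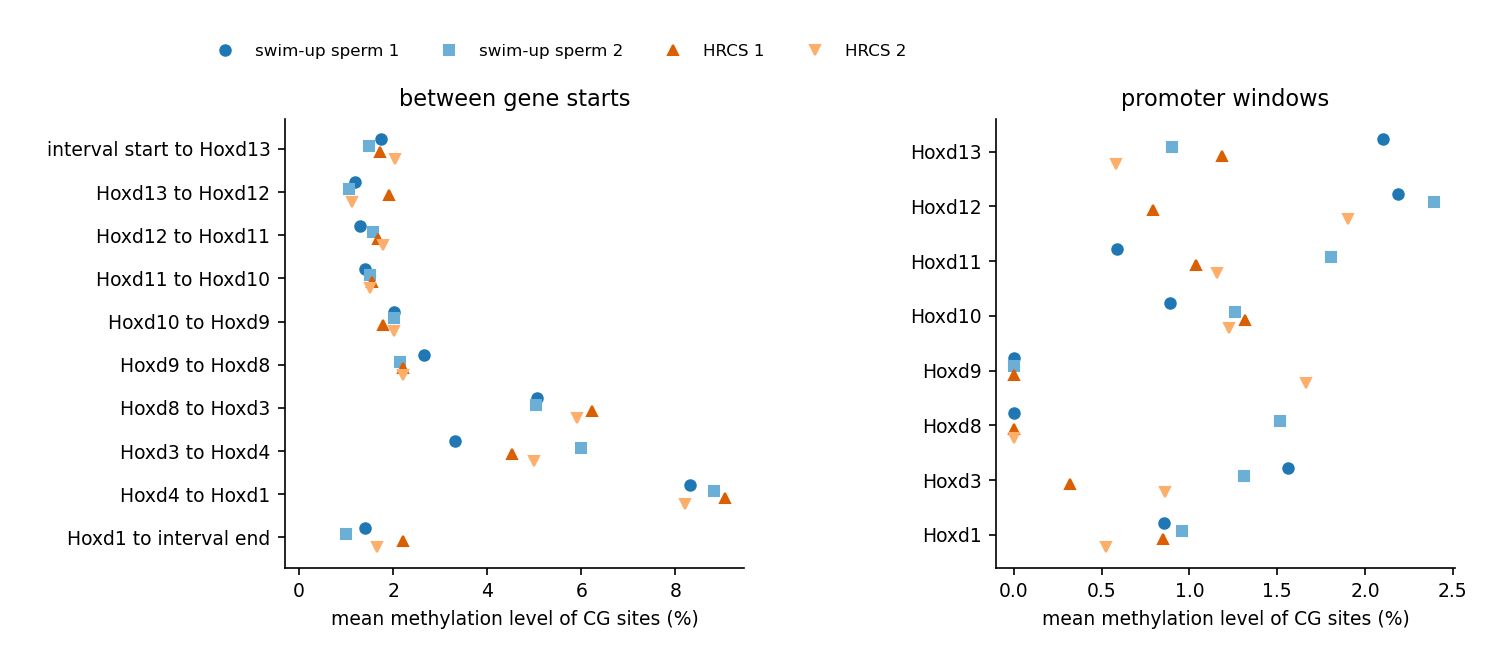
Mean methylation level (%) of the used CG sites for each library (circles and squares, swim-up sperm; triangles, HRCS), on the left between successive gene starts in chromosome order and on the right in the promoter windows of the 8 genes with a used site. The Hoxd4 to Hoxd1 segment lies at 8.20% to 9.05%, above every other segment, and no promoter value exceeds 2.39%.

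Promoter windows of 300 bases were low in every gene that could be measured. Placed in mm9 by their spacing of CG sites, all 9 Hoxd windows were found and 8 held used sites. Their means over 4 libraries ran from 0.379% for Hoxd8 to 1.82% for Hoxd12, with a median of 1.08%. Across all 16234 measured promoters the median was 1.16%, and 88.2% were at or below 5%. For Hoxd13 (chr2:74506032-74506331, 19 sites) the levels were 2.10% and 0.902% in swim-up sperm against 1.18% and 0.585% in HRCS. For Hoxd12 (chr2:74512820-74513119, 13 sites) they were 2.19% and 2.39% in swim-up sperm against 0.791% and 1.90% in HRCS. The libraries overlapped for Hoxd13 and not for Hoxd12, whose difference of -0.942 points gave an exact permutation p of 0.333. Without 1 library it ran from -1.50 (without the second HRCS library) to -0.387 (without the first).

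For Hoxd11 (25 sites) the levels were 0.588% and 1.81% in swim-up sperm against 1.04% and 1.16% in HRCS. Hoxd10 (22 sites) had 0.888% and 1.26% in swim-up sperm against 1.32% and 1.23% in HRCS. Both genes overlapped between the fractions. The Hoxd9 window (10 sites) had no methylated read in 3 libraries and 1.67%, on 82 calls, in the second HRCS library. The Hoxd8 window, which precedes an upstream transcript start and rests on 3 sites, was at 0 in 3 libraries and at 1.52%, on 54 calls, in the second swim-up library. Exon 1 of Hoxd8, with 63 sites, had 1.66% and 0.922% in swim-up sperm against 2.80% and 2.12% in HRCS, which did not overlap. For Hoxd3 (18 sites) the levels were 1.56% and 1.31% in swim-up sperm against 0.323% and 0.859% in HRCS. Hoxd1 (29 sites) had 0.855% and 0.956% in swim-up sperm against 0.849% and 0.524% in HRCS. Of the 8 promoters, 3 (Hoxd12, Hoxd3 and Hoxd1) had libraries that did not overlap, beside 33.1% of all measured promoters. All 3 of these 8 were lower in HRCS, where 12.7% of all measured promoters were lower in HRCS without overlap. Averaged over the 8 genes, the promoters stood at 1.15% ± 0.173 in swim-up sperm against 0.839% ± 0.214 in HRCS (SD, n = 2, exact permutation p = 0.333). With 1000 bases to either side of the start in place of the 300 base window, the difference of -0.307 points turned to 0.280. In that span the Hoxd8 difference moved most, from -0.758 to 1.55. The Hoxd12 difference turned to 0.284, that of Hoxd1 from -0.219 to 0.498 and that of Hoxd11 from -0.0998 to 0.127. For Hoxd3 the difference went from -0.847 to -0.364. The Hoxd1 difference was -0.0566 without the second HRCS library.

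Hoxd4, which helps pattern the hindbrain and neck, was the exception. RefSeq places its start 53.8 kb from that of Hoxd13, well before its coding exons, and the promoter window there (chr2:74559785-74560084) holds only 4 CG dinucleotides, none of which had enough reads. Within 1 kb of this start, 24 listed sites shared 13 calls over the 4 libraries, and 11 of them were methylated. That number of calls gives no level for a library. The coding exons of Hoxd4 were well covered, with 52 sites at 2.38% and 2.14% in swim-up sperm against 2.54% and 1.21% in HRCS, and exon 5 alone, with 48 sites, had a mean of 1.84%. In introns 3 and 4 of its transcript the means over 4 libraries were 40.2% and 26.4%, on 16 sites each, while intron 5, also with 16 sites, had 1.14%. Exon 2 of Hoxd13 and of Hoxd1, which encodes the homeodomain, had no used site.

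Of the promoters of other genes in and beside the interval, Evx2 was at 1.02%, Lnpk, for a protein that shapes the endoplasmic reticulum, at 1.17%, and Mtx2, for a mitochondrial import protein, at 1.34%. The transcript 4930445N08Rik, in the Hoxd13-side flank, was at 1.09%. The antisense transcript Hoxd3os1 had 1.26%, and 2 starts of the non-coding Gm38462 had 2.16% and 1.15%. Promoters of the other clusters, placed in the same way, ran from 0.832% to 2.07% in 9 windows of HoxA, 0.856% and 5.69% in HoxB and 1.26% in HoxC, each with at least 3 used sites.

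By position in the genes, introns as a class stood above the others, a level that came mostly from the long first intron of Hoxd3, which also spans the Hoxd4 transcript. Coding exons had a mean of 1.40% and 1.12% in swim-up sperm against 1.62% and 1.55% in HRCS over 743 sites, none of them above 50%. The 235 sites in the 1 kb before a Hoxd start had 0.986% and 1.14% in swim-up sperm against 0.784% and 0.816% in HRCS. In neither of these classes did the libraries of the fractions overlap (exact permutation p = 0.333 each). Coding exons were higher in HRCS and the sites before a start lower. Introns of coding transcripts had 9.30% and 10.1% in swim-up sperm against 9.72% and 9.05% in HRCS over 473 sites, of which 27 were above 50%. Introns were higher than coding exons in 4 of 4 libraries. The first intron of Hoxd3, with 408 sites, had a mean over 4 libraries of 11.1%. Those sites include exon sites of Hoxd4, which the classes count as exons. The second intron of Hoxd3, on 5 sites, also had 11.1%. The introns of Evx2, Hoxd12, Hoxd11, Hoxd10 and Hoxd9 had means of 0.886% to 2.51%. Those of Hoxd13, on 3 sites, and of Hoxd1, on 6 sites, had 2.98% and 0.556%. Sites between coding transcripts had 4.15% and 3.91% in swim-up sperm against 4.57% and 4.54% in HRCS, which did not overlap (difference 0.524 points, exact permutation p = 0.333). In means over 4 libraries, exons outside the coding sequence stood below introns and sites between coding transcripts but above coding exons (1.42%). Exons of non-coding transcripts had 3.27% and untranslated exons of coding transcripts 3.64%. In these untranslated exons the fractions differed by 0.527 points, and the libraries overlapped.

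The methylated windows fell into 9 stretches, here joined where windows above 25% (mean of the 4 libraries) lay within 200 bp of each other, and described without a test because they were chosen by their level. All lay between the starts of Hoxd8 and Hoxd1. They had 15 to 30 listed CG sites per kb. Each window needed at least 3 used sites, so a single window could not fall below 15 per kb. The 27.1 per kb over the whole interval had no such minimum, so the densities cannot be compared. The highest was chr2:74562601-74563000, in introns of Hoxd3 and Hoxd4, with 87.0% and 89.5% in swim-up sperm against 86.9% and 87.0% in HRCS. Its 6 sites were all above 75% in the mean of the libraries. At the first of them, position 74562672, 19 of 20 and 17 of 19 reads were methylated in swim-up sperm against 18 of 19 in each HRCS library. At position 74562885 the reads were 44 of 46 and 43 of 43 in swim-up sperm against 24 of 24 and 21 of 26 in HRCS.

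Another high stretch, chr2:74547801-74548000, lay in an intron of Gm38462, with the midpoint of its sites 2142 bases before the Hoxd3 start. Its level was 65.3% and 80.4% in swim-up sperm against 77.3% and 78.0% in HRCS, with both HRCS libraries inside the range of swim-up sperm. The site at 74547976 alone spread from 27.8% to 87.5%, on 8 to 25 reads.

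The widest stretch, chr2:74575201-74577200, lay in the first intron of Hoxd3. Its 42 sites had 50.6% and 48.5% in swim-up sperm against 50.4% and 49% in HRCS, on 871 to 1700 calls. Along its 7 windows, in order, the means over the 4 libraries were 45.4%, 86.2%, 63.6%, 47.8%, 34.0%, 29.8% and 38.9%, so that the level was highest near its start and neighbouring sites could differ. Sites 74575363 and 74575368, for example, were at 34.7% and 62.8%. At position 74575692, 52 of 61 and 59 of 66 reads were methylated in swim-up sperm against 32 of 34 and 43 of 49 in HRCS, while at 74576938 these were 6 of 28 and 16 of 56, and 10 of 35 and 4 of 18.

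**Figure D3:**
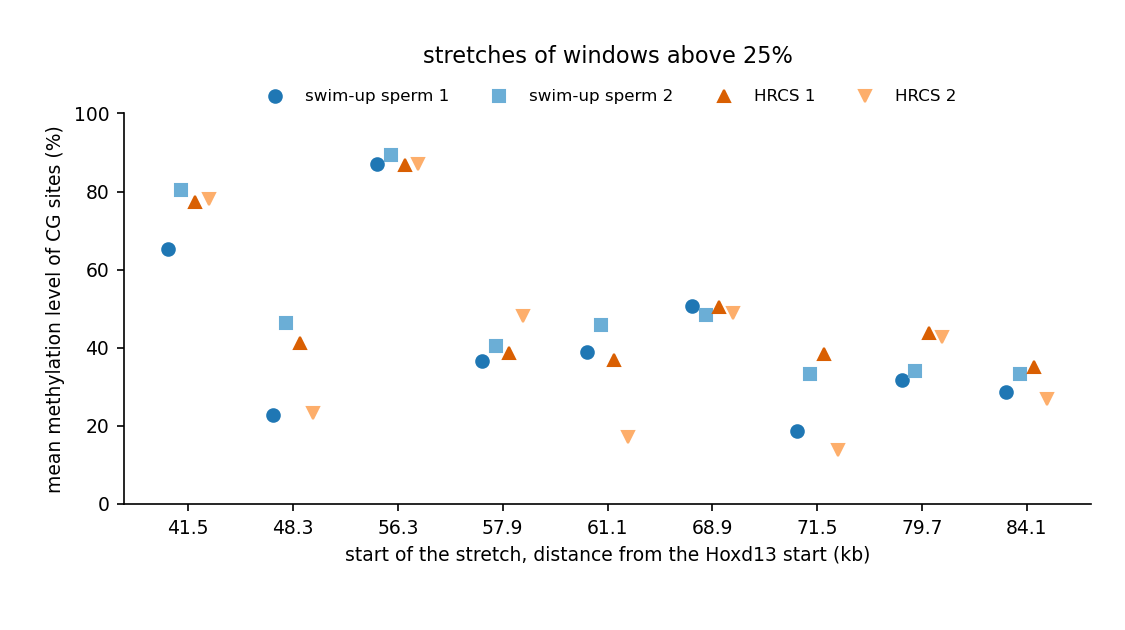
Mean methylation level (%) of the used CG sites in each of the 9 stretches of windows above 25%, one marker per library, by distance of the stretch from the Hoxd13 start (kb). The highest stretch lies at 86.9% to 89.5% and the widest at 48.5% to 50.6%. In the stretch of Hoxd3 exon 3 and Haglr exon 3 the HRCS libraries, at 43.7% and 42.6%, lie above the swim-up libraries, at 31.8% and 34.0%.

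One stretch adjoined Mir10b, a microRNA gene that is conserved with the Hox clusters and here lay in an intron of the Hoxd4 transcript. Its mature arms are printed 5′ to 3′ from RefSeq with the seed, bases 2 to 8, in capitals, because each carries 1 of the CG sites measured in the hairpin.
mmu-miR-10b-5p: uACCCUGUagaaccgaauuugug
mmu-miR-10b-3p: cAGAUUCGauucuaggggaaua
The site in the 5p arm, position 74564144, lies outside the seed and had 1 of 22 and 4 of 31 methylated reads in swim-up sperm against 1 of 18 and 6 of 20 in HRCS. That in the 3p arm, position 74564177, lies within the seed of the arm and had 5 of 17 and 10 of 36 methylated reads in swim-up sperm against 5 of 21 and 4 of 22 in HRCS. The libraries of the fractions overlapped at the site in the 5p arm. At the site in the 3p arm both HRCS libraries were below both swim-up libraries. The neighbouring stretch, chr2:74564201-74564400, was at 36.5% and 40.5% in swim-up sperm against 38.7% and 48.2% in HRCS. Within 1 kb of the hairpin, 31 sites had means of 17.2% and 20.7% in swim-up sperm against 19% and 17.9% in HRCS. The same span around the coding transcript start had means over 4 libraries of 0.840% to 1.71% in the 8 Hoxd genes with used sites there.

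The fractions were compared window by window with edgeR's quasi-likelihood test. None of the 242 windows of the interval passed an adjusted p of 0.05 (Benjamini-Hochberg over all windows), where 0.00442% of all windows passed, 14 in number. An unadjusted p under 0.05 was found for 15 windows of the interval, or 6.20%, beside 4.59% of all windows. Fisher's exact test on pooled calls, which covers counting error only and not the spread between libraries, gave 0 windows of the interval past its adjusted p, beside 0.756% of all windows. It gave 23 (9.50%) at an unadjusted p under 0.05, beside 9.66% of all windows. The libraries of the fractions did not overlap in 68 windows of the interval, which is 28.1% beside 32.7% of all windows. Higher in HRCS without overlap were 41 of the 242 (16.9%), beside 16.6% of all windows, and lower were 27 (11.2%), beside 16.1%. Levels apart by more than 10 points between the fractions' means were found in 3 windows (1.24%), beside 3.18% of all windows. Those are differences of means of 2 libraries. Between single libraries of different fractions, 7 to 14 windows (2.89% to 5.79%) were that far apart in the 4 pairs, beside 6.18% to 7.44% of all windows. Between the 2 swim-up libraries the number was 16 (6.61%, beside 7.12% of all windows), and between the 2 HRCS libraries 5 (2.07%, beside 5.95%). In the mean of the 4 libraries, 81.0% of the windows of the interval were at or below 5%, beside 41.6% of all windows. Windows that low have little room to be 10 points apart, and these shares were not matched on level.

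Of the windows without overlap, that with the largest difference was chr2:74586201-74586400, in Hoxd3 exon 3, beyond the measured coding sites, with the midpoint of its sites 14744 bases before the Hoxd1 start. Its level was 40.2% and 43.2% in swim-up sperm against 60.4% and 63.1% in HRCS, on 54 to 109 calls. The difference was 20.0 points, with an unadjusted p of 0.0686 and an adjusted p of 1 in edgeR's test. The next window, chr2:74586401-74586600, in exon 3 of the antisense transcript Haglr, had 33.9% and 36.1% in swim-up sperm against 40.7% and 48.1% in HRCS, with an adjusted p of 1 in edgeR's test. Its difference of 9.40 points became 5.73 without the second HRCS library. In the other direction, chr2:74567401-74567600 in an intron of Hoxd3 had 38.9% and 45.8% in swim-up sperm against 36.9% and 17.1% in HRCS. The difference of -15.4 points became -5.47 without the second HRCS library and -25.3 without the first.

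The remaining 2 of these 5 windows were at low levels. A window in exon 3 of Evx2, chr2:74492001-74492200, had 1.11% and 5.88% in swim-up sperm against 12.2% and 12% in HRCS, on 21 to 91 calls. One in exon 2 of Gm38462, chr2:74541201-74541400, had 5.26% and 17.9% in swim-up sperm against 2.78% and 5.17% in HRCS. Its difference of -7.59 points became -1.29 without the second swim-up library and -13.9 without the first. All 5 had an adjusted p of 1 in edgeR's test. The 5 windows with the highest mean levels, from 63.6% to 92.3%, differed between the fractions by -6.37 to 4.82 points, with adjusted p-values of 1 in edgeR's test. The -6.37 points, in chr2:74562801-74563000, became -2.44 without the second HRCS library and -10.3 without the first.

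The depth of the interval differed between the fractions. Of every 1000000 calls, 980 and 1207 fell in the interval in swim-up sperm against 812 and 799 in HRCS (ratio 0.737, exact permutation p = 0.333). Both HRCS libraries had fewer calls per 1000000 than both swim-up libraries in 164 of the 242 windows (67.8%), beside 22.5% of all windows. The 242 windows are neighbours at 1 locus in the same libraries, so they are not independent of each other. In windows with 3 to 5 listed CG sites the ratio of HRCS to swim-up sperm was 0.617, and in those with 20 or more it was 0.889. Over all windows these ratios were 0.993 and 1.07. Both HRCS libraries were higher in 4 windows of the interval (1.65%), beside 23.9% of all windows. In the flanks, both were lower in 3 of 18 windows (16.7%) and higher in 7 (38.9%), beside 22.5% and 23.9% of all windows. The part of depth in the levels was not tested. Mean absolute differences over the windows of the interval were 2.25 points between the HRCS libraries and 2.34 points between the swim-up libraries.

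**Figure D4:**
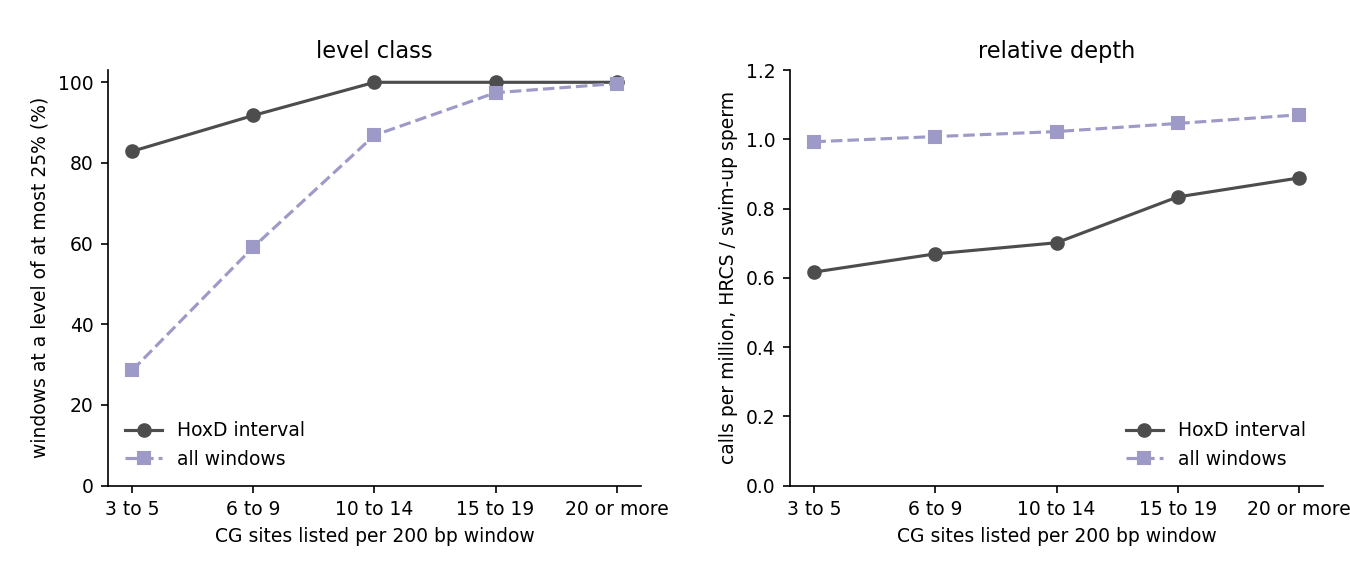
Windows of the HoxD interval (circles) and all windows (squares) by the number of CG sites listed per 200 bp window. On the left is the percentage of windows at a level of at most 25%, 82.9% in the interval and 28.6% overall at 3 to 5 sites; on the right is the ratio of calls per 1000000 in HRCS to swim-up sperm, 0.617 and 0.993 at 3 to 5 sites.

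Whether the interval was lower than its surroundings depended on which sites were read. Over sites with at least 5 reads, the flanks had 8.36% and 8.04% in swim-up sperm against 8.11% and 8.13% in HRCS, a difference between the fractions of -0.0787 points (exact permutation p = 1). The flanks differed from each other. That on the Hoxd13 side, with 111 sites, had 3.34% and 3.52% in swim-up sperm against 3.40% and 3.31% in HRCS, and the interval was above it in 4 of 4 libraries. That on the Hoxd1 side, with 98 sites, had 14.04% and 13.2% in swim-up sperm against 13.4% and 13.6% in HRCS. Of the 111 sites, 97 lay within 1 kb of the Lnpk start, and of the 98, 76 lay within 1 kb of the Mtx2 start. The levels of the flanks are thus mostly those of promoter surroundings and not of the whole 100 kb. Over both flanks together, the interval was lower in 4 of 4 libraries, by 4.21 points ± 0.267 (SD, n = 4, two-sided exact sign-flip permutation test, p = 0.125, the smallest it can give). With a minimum of 20 reads, which left 49 flank sites on the Hoxd13 side and 8 on the Hoxd1 side, the interval was higher by 1.22 points. Sites under the minimum of 5 reads showed the surroundings from the other side. Their pooled calls were methylated at 69.0% and 70.1% in swim-up sperm against 66.3% and 61.8% in HRCS in the Hoxd13-side flank. In the Hoxd1-side flank the values were 84.8% and 86.4% against 79.6% and 76.2%. In the interval they were 7.42% and 8.32% against 6.42% and 6.73%. Both HRCS libraries were thus below both swim-up libraries in each region. So were they over all such sites of the genome, with 71.5% and 71.8% in swim-up sperm against 67.7% and 69.0% in HRCS. Pooled calls weight a site by its reads, and the part of this weighting in these differences was not tested. Over sites with at least 5 reads, weighted equally, both fractions stood at 34.9% genome-wide.

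The 5 kb bins with no read minimum traced the edges. The last bin before the interval was at 95.7% of 141 calls, the first inside it at 21.6% of 97 calls, and the next at 1.86% of 14014 calls. Bins of the interval that were sparsely covered did not all share the low level. The bin that ends just before the annotated Hoxd4 start, chr2:74555001-74560000, was at 92.5% of 40 calls, and the bin before Hoxd1, chr2:74595001-74600000, at 82.6% of 46 calls, between neighbours at 3.37% and 1.32%. The last bin of the interval was at 100% of 25 calls. In each of these 3 sparse bins every library was at 66.7% or more, on 3 to 16 calls. They also list the fewest CG sites of the 5 kb bins of the interval, at 32, 41 and 33 in that order. The low level at few CG sites per 200 bp window thus does not extend to these bins.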

How the data were processed

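TGBS was measured in 2 libraries of swim-up sperm and 2 of HRCS. Per the study's methods, libraries were made by bisulfite treatment and post-bisulfite adaptor tagging with SureSelect mouse capture, and single reads were mapped to mm9 with Bmap. Removal of duplicate reads is not given in the sources used here. The authors deposited, for each CG site and strand, whole-number counts of reads. The columns carry no names, and the one that never exceeded the total was taken as methylated reads. A read over several CG sites is counted at each. Strands were added, and 88.7% to 89.6% of calls were on the minus strand.

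Sites needed 5 reads in all libraries and windows of 200 bp needed 3 sites. A level is the plain mean of site levels. RefSeq promoters (GRCm38.p6, 250 bases before to 50 after a start) were placed in mm9 where their spacing of at least 4 CG dinucleotides occurred once, which held for 22074 of 22541. All 4809 CG sites listed in the interval and flanks paired with GRCm38 at the same spacing, so exons and introns were read from RefSeq at the paired site without converting coordinates. Windows were tested with edgeR 4.0.16 (R 4.3.3), with terms for library, methylated calls and methylated calls in HRCS, a common dispersion and Benjamini-Hochberg adjustment over all windows. The scripts were tested on simulated data. Means were compared by two-sided exact permutation tests (Python 3.11.15, SciPy 1.17.1). The named windows were the 5 with the highest mean and the 5 with the largest difference among those without overlap. All 9 Hoxd genes and the other genes with promoters placed in the interval or flanks were also named. Stretches, single sites and Mir10b were picked after their values were seen. Members and lists were chosen with earlier results of these data known. Alternatives covered read minimum, window size, sites per window, pooling, promoter span, Fisher's exact test, a replicate block and each library left out.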

Additional observations from a re-analysis of the deposited data

How the results depend on the processing

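The difference between the fractions in the interval, 0.162 points, turned to -0.0201 with a minimum of 20 reads, to -0.359 with calls pooled over sites and to -0.435 with pooled calls and no minimum, the last chosen after seeing the data. That in the flanks, -0.0787, turned to 0.109 with 20 reads, 0.0326 over 200 bp windows and 0.0811 without swim-up replicate 1. Interval minus flanks turned to 1.22 with 20 reads, and the promoter difference to 0.280 with 1000 bases to either side. The cause was not tested. Leaving out each library gave 0.0439 to 0.281 for the interval, -0.239 to 0.0811 for the flanks, -4.29 to -4.08 for interval minus flanks and -0.458 to -0.156 for the promoters.

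No HoxD window passed the adjusted p in any alternative run. Over all windows the count of 14 became 9 with a replicate block, 8 with 10 reads, 7 in 1000 bp windows, 5 at single CG sites (chosen after seeing the data) and 2397 by Fisher's exact test, and 3 to 36 without 1 library (36 without swim-up replicate 1, 4 without swim-up replicate 2 and 3 without HRCS replicate 2). The 15 HoxD windows at an unadjusted p under 0.05 became 10 with the replicate block (4.13%, beside 3.24% of all windows), 9 of 206 with 10 reads (4.37%, beside 4.49%), 4 of 77 in 1000 bp windows (5.19%, beside 5.69%) and 23 by Fisher's exact test (9.50%, beside 9.66%). Without 1 library they ran from 9 without HRCS replicate 2 (3.72%, beside 3.39%) to 23 without swim-up replicate 1 (9.50%, beside 6.17%). The labels share replicate numbers, but deviations of same-numbered libraries had r = -0.00176 over all windows and -0.0391 in HoxD, so the numbers were not taken to pair libraries. The share of windows at or below 25% was 90.9% in 1000 bp windows and 90.1% with 1 site per window, and 91.7% to 92.6% without 1 library. The share apart by over 10 points was 2.74% with 1 site per window and 1.65% to 4.13% without 1 library (3.31% without swim-up replicate 1 or HRCS replicate 1, 4.13% without swim-up replicate 2).

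Of the named windows, chr2:74562601-74562800 (-0.996 to 8.53 over the libraries left out) turned from 3.77 points to -0.996 without swim-up replicate 1 and -0.318 without HRCS replicate 2. Without swim-up replicate 1, chr2:74547801-74548000 (-2.73 to 12.4) turned from 4.82 to -2.73 and chr2:74576001-74576200 (-10.9 to 4.77) from -3.06 to 4.77. Depth limits the sparse bins, which rest on few calls per library, and the Hoxd4 start and exon 2 of Hoxd13 and Hoxd1, which had no site with enough reads.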
